A study of Mus musculus with 8 samples.

Results

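Adenomas from mouse colon that arose by 2 routes to active canonical WNT signalling were set against each other: 3 AOM/DSS adenomas against 3 ApcMin/+ adenomas, 6 of the 8 libraries of the study. The groups were taken as the labels give them, and no measured value chose them. The AOM/DSS adenomas came from wild-type mice. At an age of 6 to 7 weeks these mice received a single dose of azoxymethane (AOM), a colon carcinogen, at 10 mg/kg. Dextran sulfate sodium (DSS) at 2% followed in 3 cycles, and tissue was taken 70 days after AOM. The ApcMin/+ adenomas came from mice that carry the Min mutation in 1 allele of Apc, and tissue was taken when these were 110 to 120 days old. All mice are labelled C57BL/6J. Genotype, carcinogen and DSS differ together between the groups, so their parts cannot be told apart, while the ages at death that the labels give or imply overlap. A difference in mouse colony or in library handling that followed the model could not be told apart from the model either. It was not tested. Each model also gave 1 non-adenoma colon section, used beside the adenoma values and in the fit. The labels do not say that the adenomas of a group came from separate mice, and the spread behind each p-value is that between the libraries as deposited, which may be technical.

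β-Catenin, encoded by Ctnnb1, carries the WNT signal to the nucleus, where it joins TCF and LEF factors to switch on target genes. A destruction complex that includes Apc marks it for breakdown by phosphorylating serines and threonines near its amino end. Loss of Apc or a mutation at those residues lets β-catenin build up. DSS damages the colon lining and brings a wave of inflammation and repair, while ApcMin/+ adenomas form without an added injury.

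The labels describe β-catenin in the AOM/DSS model as stabilised by point mutations between codons 32 and 41. That stretch of the normal Ctnnb1 coding sequence is shown because it is where the driver mutations of one group lie; the tables hold counts only and no alleles. The sequence is GENCODE vM21 on GRCm38, chr9:120950587-120950646, plus strand, covering codons 27 to 46 with codons 32 to 41 in capitals.
Ctnnb1: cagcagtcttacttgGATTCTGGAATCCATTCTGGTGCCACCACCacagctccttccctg

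Library totals of the adenomas lay between 18156741 and 22719895 counts. In a principal component analysis of the 6 adenomas the first component (62.2% of the variance) separated the models, with the AOM/DSS adenomas between -78.7 and -38.1 and the ApcMin/+ adenomas between 47.2 and 63.6. AOM/DSS adenoma 2 lay farthest out on it, and ApcMin/+ adenoma 3 lay lowest on the second component, which held 16.9%. Epithelial markers were high in every adenoma: the cell adhesion gene Epcam stood at 1165 to 1570 CPM (a gene's count relative to its library total, with totals scaled by the TMM method) in AOM/DSS adenomas and 1420 to 1778 CPM in ApcMin/+ adenomas. Of 18 epithelial genes 1 differed, the claudin gene Cldn4, which was lower (231 ± 45.2 CPM in AOM/DSS adenomas, 417 ± 72.7 CPM in ApcMin/+ adenomas, SD, n = 3 each). Cldn4 lost its call without any 1 of the 3 AOM/DSS adenomas or without ApcMin/+ adenoma 1 or 2, and without ApcMin/+ adenoma 3 the epithelial list had 7 genes higher and 1 lower. Y-linked genes had counts in all 6 adenomas. Of 4 tested, 1 was called, Kdm5d, which was higher in AOM/DSS adenomas and held in all leave-one-out fits. Their summed level was 318 to 397 CPM in AOM/DSS adenomas against 247 to 271 CPM in ApcMin/+ adenomas.

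edgeR's quasi-likelihood test called 3122 of 17218 genes at a Benjamini-Hochberg adjusted p under 0.05, which is 18.1%, with 1761 higher in AOM/DSS adenomas (10.2%) and 1361 lower (7.9%). The shares of 10.2% higher and 7.9% lower are the background for each list count below. The median log2 fold change over all genes was -0.01. All adjusted p-values below come from this test, and each log2 fold change is AOM/DSS over ApcMin/+ with its standard error. The number of calls changed with the library left out: leaving out AOM/DSS adenoma 1, 2 or 3 gave 1827, 2018 and 2026 calls, and leaving out ApcMin/+ adenoma 1, 2 or 3 gave 1333, 779 and 2157. Of the 3122 genes 710 were called in all 6 of these fits, 414 higher and 296 lower. In bulk tissue, fewer cells of a type and less RNA per cell cannot be told apart.

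**Figure D1:**
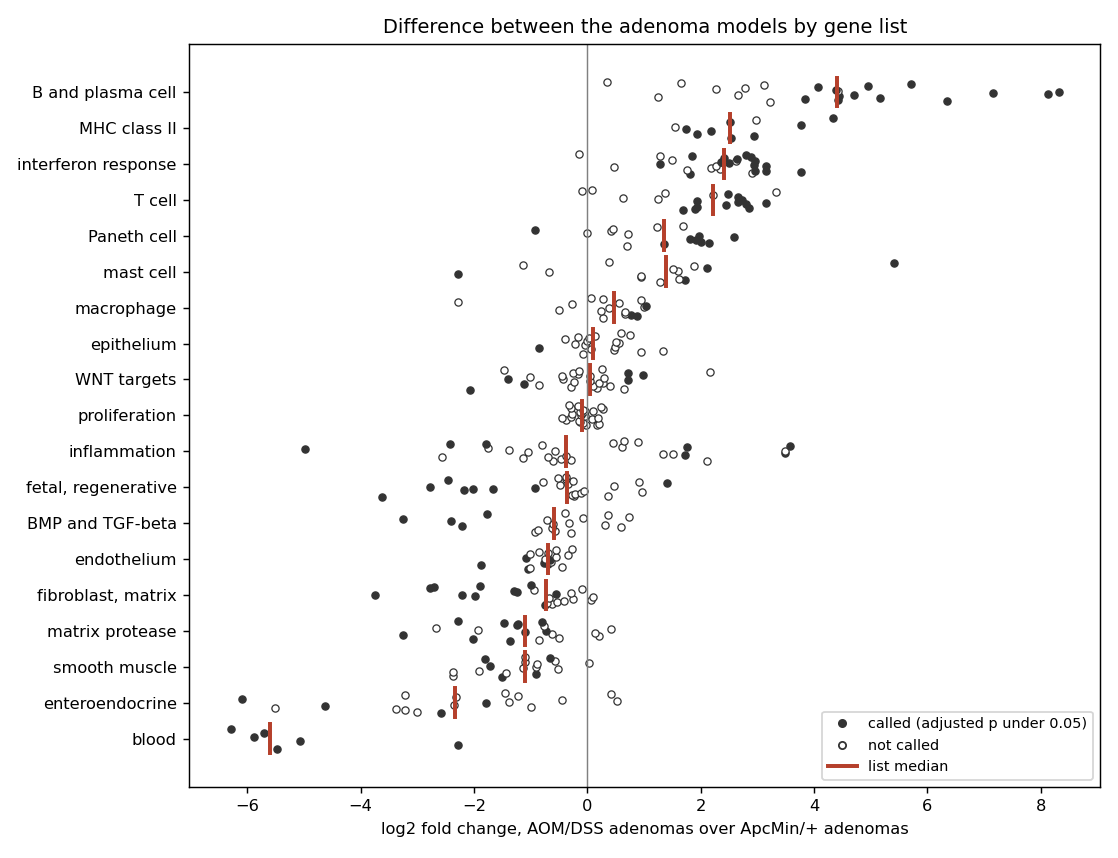
Log2 fold change of each tested member of 19 gene lists, AOM/DSS adenomas over ApcMin/+ adenomas; filled points passed edgeR's test at an adjusted p under 0.05, open points did not, and red bars are list medians. Genes with no count in 1 group are drawn at the bound set by 3 counts per library. B and plasma cell genes lie at the right (median 4.40) and blood genes at the left (median -5.59).

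Like most genes of any kind, most direct WNT targets did not pass the test, while a few inhibitors and transcription factors did. Of 27 WNT target genes 3 were higher and 3 lower, with a list median of 0.05. The shares over all genes were 10.2% higher and 7.9% lower, so the number of WNT calls does not set the list apart. Leaving out AOM/DSS adenoma 1 or 3 gave 1 higher and 4 lower, and leaving out ApcMin/+ adenoma 1 or 2 gave 1 of each. Without AOM/DSS adenoma 2 or ApcMin/+ adenoma 3 there were 2 lower. Axin2, a feedback inhibitor that is part of the destruction complex, had 347, 257 and 420 CPM in AOM/DSS adenomas against 380, 286 and 239 CPM in ApcMin/+ adenomas. The groups overlapped, and the log2 fold change of 0.18 ± 0.24 did not pass (adjusted p = 0.618). The WNT-induced factor gene Lef1 had a log2 fold change of 0.05 ± 0.20 (adjusted p = 0.873) and Rnf43, which encodes a ligase that removes WNT receptors, one of 0.06 ± 0.21 (adjusted p = 0.872). Notum, whose product strips the lipid from WNT proteins, ranged more widely in AOM/DSS adenomas (173, 190 and 514 CPM) than in ApcMin/+ adenomas (274, 253 and 190 CPM) and did not pass (0.29 ± 0.43, adjusted p = 0.658). A p-value that misses the threshold does not show equal levels.

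Apcdd1, which encodes a membrane inhibitor of WNT signalling, was the clearest exception. It had 51.1, 68.1 and 69.9 CPM in AOM/DSS adenomas against 319, 222 and 251 CPM in ApcMin/+ adenomas. Every AOM/DSS adenoma lay below every ApcMin/+ adenoma, with a log2 fold change of -2.07 ± 0.19 (adjusted p = 0.00345), and the call held in all leave-one-out fits. Both sections were far lower, at 10.4 CPM (AOM/DSS) and 2.35 CPM (ApcMin/+). Myc, the growth-promoting transcription factor gene, had 112, 91.3 and 97.2 CPM in AOM/DSS adenomas against 62.9, 62.9 and 56.4 CPM in ApcMin/+ adenomas. Myc was higher in all 3 AOM/DSS adenomas (0.72 ± 0.12, adjusted p = 0.0126), and this too held with any 1 adenoma left out. Sox9, a transcription factor gene of the crypt base, was higher (0.97 ± 0.26, adjusted p = 0.0426), as was the TCF gene Tcf7l2 (0.71 ± 0.15, adjusted p = 0.0235). The secreted or cytoplasmic WNT inhibitor genes Dkk3 (-1.11 ± 0.23, adjusted p = 0.022) and Nkd2 (-1.41 ± 0.36, adjusted p = 0.0409) were lower. These 4 lost their calls in 3 or more of the 6 leave-one-out fits, with adjusted p up to 0.111 for Sox9, 0.0631 for Tcf7l2, 0.0666 for Dkk3 and 0.12 for Nkd2.

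Ctnnb1 had 1088, 1101 and 1433 CPM in AOM/DSS adenomas against 1908, 2055 and 1650 CPM in ApcMin/+ adenomas, so that the groups did not overlap. Its log2 fold change of -0.63 ± 0.17 was just past the threshold (adjusted p = 0.0445), and it missed it without any 1 adenoma other than AOM/DSS adenoma 3 (adjusted p = 0.0545 to 0.146). Apc had 107, 112 and 152 CPM in AOM/DSS adenomas against 151, 154 and 150 CPM in ApcMin/+ adenomas, and the difference did not pass (-0.30 ± 0.15, adjusted p = 0.208). The stem cell marker gene Lgr5 overlapped between the groups, with 17.5, 32.1 and 118 CPM in AOM/DSS adenomas and 101, 125 and 57.9 CPM in ApcMin/+ adenomas (adjusted p = 0.454). None of the 24 proliferation genes was called by edgeR's test (0 higher, 0 lower, 0 at an unadjusted p under 0.05, median -0.09), and DESeq2 and limma called 0 too. Without ApcMin/+ adenoma 3 there were 2 lower. The cycle marker gene Mki67 averaged 251 ± 30.8 CPM in AOM/DSS adenomas and 235 ± 47 CPM in ApcMin/+ adenomas (SD, n = 3 each).

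Genes of antigen presentation and the interferon response were higher in AOM/DSS adenomas. Major histocompatibility complex (MHC) class II molecules present peptides to helper T cells; interferons raise them and also the immunoproteasome, which cuts peptides for MHC class I. Of 10 class II genes 8 were higher and 0 lower, with a median log2 fold change of 2.52, and in all 10 the groups did not overlap, where 22.4% of all genes stood apart in that direction. Of 25 interferon genes 15 were higher and 0 lower, with a median of 2.40, and in 21 the groups did not overlap. The summed class II level was 1628 to 4305 CPM in AOM/DSS adenomas against 435 to 544 CPM in ApcMin/+ adenomas, and the summed interferon level was 1519 to 4413 CPM against 626 to 750 CPM in the same order.

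H2-Eb1, a class II chain gene, had 364, 757 and 293 CPM in AOM/DSS adenomas against 81.1, 73.7 and 93.1 CPM in ApcMin/+ adenomas. The lowest AOM/DSS adenoma stood well above the highest ApcMin/+ adenoma (2.51 ± 0.37, adjusted p = 0.00968). Cd74, the invariant chain that guides class II molecules, followed the same order among AOM/DSS adenomas. It had 781, 1932 and 738 CPM in AOM/DSS adenomas and 226, 164 and 209 CPM in ApcMin/+ adenomas (2.53 ± 0.41, adjusted p = 0.0126). Ciita, the master activator of class II genes, was higher as well (2.95 ± 0.68, adjusted p = 0.0312). The immunoproteasome subunit gene Psmb9 had 36.3, 99.3 and 35.4 CPM in AOM/DSS adenomas against 6.81, 7.18 and 9.07 CPM in ApcMin/+ adenomas (2.89 ± 0.45, adjusted p = 0.0113). The peptide transporter gene Tap1 had 61.4, 178 and 52.2 CPM in AOM/DSS adenomas against 17.3, 11.8 and 12.6 CPM in ApcMin/+ adenomas (2.80 ± 0.51, adjusted p = 0.016). Ubd, which encodes the ubiquitin-like protein FAT10, had a wide gap, with 27.8, 214 and 30.7 CPM in AOM/DSS adenomas against 0.953, 0.665 and 1.01 CPM in ApcMin/+ adenomas (6.69 ± 1.04, adjusted p = 0.0113).

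In all 6 of these genes AOM/DSS adenoma 2 was the highest library. Without it the class II list had 9 genes higher with a median of 1.75, and the interferon list 15 with a median of 1.53. The calls rested more on the ApcMin/+ adenomas. Without ApcMin/+ adenoma 2 no gene of either list was called (lowest adjusted p of the called members 0.0522 for class II and 0.0594 for interferon), though the medians stayed at 2.45 and 2.39. Without ApcMin/+ adenoma 1 the counts were 4 and 2, and without adenoma 3 they were 5 and 6. The sections did not show the class II gap: the list's median difference between them was -0.24, and 1.27 for interferon genes.

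Part of the genes of each list carry short promoter motifs known to bind their regulators. The core of the interferon-stimulated response element (ISRE), GAAA, any 2 bases and GAAA on either strand, was found from 250 bases before to 50 after the start site in 10 of 19 interferon genes with a RefSeq promoter (GRCm38.p6), against 3.85% of 11826 tested genes. Of the 10, 5 were called: Isg15, Gbp2, Gbp3, Igtp and B2m. Over all 19 genes 12 were called, so those with the motif were not called more often. The gamma-activated site TTCNNNGAA was found in 5 of the 19, against 8.51%. The Y box CTGATTGG was found in 3 of 7 class II genes, H2-Aa, H2-Eb1 and H2-Oa, against 6.32% of tested genes. A match is a description of the letters and not a bound site. Shown are the promoters of the called gene with the largest difference for each: Gbp3, a guanylate-binding protein gene (chr3:142559794-142560093, plus strand), with 2 overlapping ISRE cores on the minus strand in capitals, the first base 45 before the start site, and H2-Eb1 (chr17:34305617-34305916, plus strand), with its Y box in capitals 62 bases before it.
Gbp3: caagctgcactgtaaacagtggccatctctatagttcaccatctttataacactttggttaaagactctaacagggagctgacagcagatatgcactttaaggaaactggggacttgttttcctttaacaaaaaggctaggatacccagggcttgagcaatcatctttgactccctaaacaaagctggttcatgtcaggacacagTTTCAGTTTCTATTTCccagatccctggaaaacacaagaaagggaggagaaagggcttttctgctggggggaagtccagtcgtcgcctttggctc
H2-Eb1: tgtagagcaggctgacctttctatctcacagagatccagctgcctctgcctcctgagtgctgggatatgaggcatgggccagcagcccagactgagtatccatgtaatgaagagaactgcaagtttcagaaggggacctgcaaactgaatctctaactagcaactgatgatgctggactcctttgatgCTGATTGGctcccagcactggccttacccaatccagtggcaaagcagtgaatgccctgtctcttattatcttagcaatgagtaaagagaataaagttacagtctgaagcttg

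Many lymphocyte genes were higher in the same adenomas. Of 22 B and plasma cell genes 13 were higher and 0 lower, with a median of 4.40, and of 19 T cell genes 12 were higher and 0 lower, with a median of 2.21. The shares over all genes were 10.2% higher and 7.9% lower. Of 230 immunoglobulin genes and segments 69 were higher and 1 lower (median 3.21); their counts are uncertain between near-identical segments, and the number higher was 40 without AOM/DSS adenoma 1 or 2, and 14, 3 and 25 without ApcMin/+ adenoma 1, 2 or 3. They took 0.717, 3.36 and 0.389% of all counts in AOM/DSS adenomas against 0.256, 0.0516 and 0.252% in ApcMin/+ adenomas. AOM/DSS adenoma 2 and ApcMin/+ adenoma 2 were the extremes of their groups. Of 16 macrophage genes 3 were higher and 0 lower, with a median of 0.47, or 0.17 without AOM/DSS adenoma 2. These were the chemokine receptor gene Cx3cr1 (1.03 ± 0.18, adjusted p = 0.0159) and the complement genes C1qa and C1qb. Without ApcMin/+ adenoma 2 none of them was called, and without ApcMin/+ adenoma 1 or 3 there was 1.

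Ighg1, which encodes the IgG1 heavy chain constant region, had 234, 2009 and 64.1 CPM in AOM/DSS adenomas against 4.27, 1.51 and 2.47 CPM in ApcMin/+ adenomas. The values spread widely among AOM/DSS adenomas, yet the lowest of them was above every ApcMin/+ adenoma (8.13 ± 1.52, adjusted p = 0.0177). Ighg2c, which encodes the IgG2c constant region, had 93.5, 498 and 22.3 CPM in AOM/DSS adenomas against 1.41, 0.266 and 0.229 CPM in ApcMin/+ adenomas (8.32 ± 1.48, adjusted p = 0.0156). Foxp3, the factor of regulatory T cells, had 6.95, 15.9 and 8.02 CPM in AOM/DSS adenomas against 2.32, 0.931 and 1.42 CPM in ApcMin/+ adenomas (2.72 ± 0.48, adjusted p = 0.0156). Cd3e, a chain of the T cell receptor complex, was higher by 2.85 ± 0.55 (adjusted p = 0.0195). Without AOM/DSS adenoma 2 the B and plasma cell list had 10 genes higher and a median of 2.44, and the T cell list 8 and 1.49. Without ApcMin/+ adenoma 2 neither list had a called gene, with medians of 3.97 and 2.03; without adenoma 1 the counts were 1 and 5, and without adenoma 3 they were 3 and 3. The T cell list also had 8 without AOM/DSS adenoma 3. Between the sections the B and plasma cell list ran the other way (median difference -0.54).

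**Figure D2:**
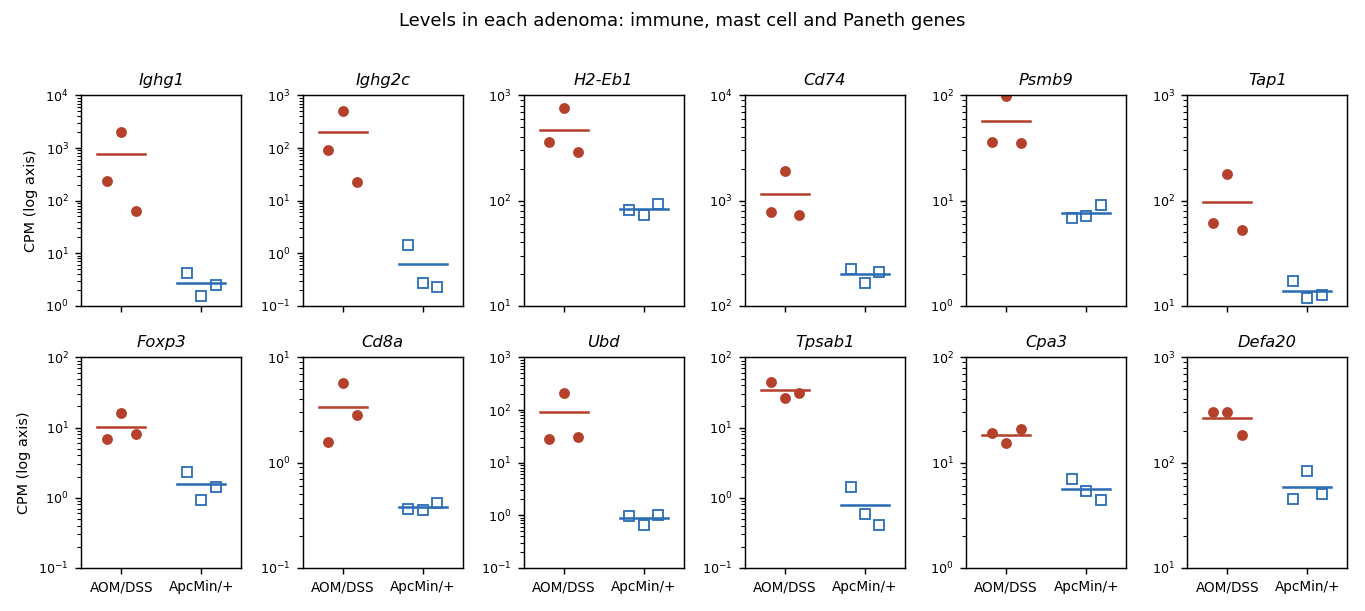
CPM on a log axis in each AOM/DSS adenoma (filled circles, left) and each ApcMin/+ adenoma (open squares, right) for 12 genes, with lines at the group means. The groups do not overlap in any of the 12; AOM/DSS adenoma 2, the middle circle, is the highest for the B cell, T cell, class II and interferon genes but not for the mast cell genes Tpsab1 and Cpa3.

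Some mast cell proteases and alpha-defensins were higher. Tpsab1, a mast cell tryptase gene, had 44.8, 26.7 and 31.4 CPM in AOM/DSS adenomas against 1.41, 0.576 and 0.412 CPM in ApcMin/+ adenomas, with AOM/DSS adenoma 2 the lowest of its group (5.41 ± 0.50, adjusted p = 0.00345). Cpa3, a mast cell carboxypeptidase gene, had 19.1, 15.3 and 20.9 CPM in AOM/DSS adenomas against 7.04, 5.36 and 4.44 CPM in ApcMin/+ adenomas (1.72 ± 0.25, adjusted p = 0.00928). Both calls held in all leave-one-out fits. Of 14 mast cell genes 3 were higher and 1 lower, where 10.2% of all genes were higher and 7.9% lower. The summed mast cell level overlapped, at 493, 193 and 332 CPM in AOM/DSS adenomas against 356, 487 and 373 CPM in ApcMin/+ adenomas. The lower one, Il1rl1, encodes the receptor for interleukin 33 and had 61.0, 34.5 and 75.8 CPM in AOM/DSS adenomas against 190, 393 and 249 CPM in ApcMin/+ adenomas (-2.28 ± 0.37, adjusted p = 0.0126).

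Alpha-defensins are antimicrobial peptides of Paneth cells, which normally sit in the small intestine. Of 15 Paneth cell genes 7 were higher, all of them defensins, and 1 lower, with a median of 1.36, or 0.85 without AOM/DSS adenoma 2. The lower one was the stress response gene Nupr1 (-0.93 ± 0.20, adjusted p = 0.0248), which passed only without AOM/DSS adenoma 2 or ApcMin/+ adenoma 3 among the leave-one-out fits. Defa20 had 303, 302 and 185 CPM in AOM/DSS adenomas against 44.7, 82.8 and 50.2 CPM in ApcMin/+ adenomas, with no overlap (2.15 ± 0.30, adjusted p = 0.00888). Defensin genes are near copies of one another, so how their counts divide is uncertain. No Paneth cell gene other than a defensin was called higher: the lysozyme gene Lyz1 averaged 1682 ± 361 CPM in AOM/DSS adenomas and 1693 ± 868 CPM in ApcMin/+ adenomas (adjusted p = 0.99), and the protease gene Mmp7 averaged 610 ± 77.4 CPM and 455 ± 184 CPM in the same order (adjusted p = 0.359). Without AOM/DSS adenoma 1 or ApcMin/+ adenoma 1 the number higher was 3, and without ApcMin/+ adenoma 3 it was 4. Without ApcMin/+ adenoma 2 it was 8. Between the sections the Paneth cell list had a median difference of 2.64, wider than that of the adenomas. Its summed level was 1486 CPM in the AOM/DSS section and 292 CPM in the ApcMin/+ section. In the adenomas the summed level overlapped, at 4424, 5167 and 3544 CPM in AOM/DSS adenomas against 2391, 4633 and 2134 CPM in ApcMin/+ adenomas.

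Inflammation genes were called in both directions. Of 27 genes 4 were higher and 3 lower, with a median of -0.38. Over all genes 10.2% were higher and 7.9% lower, so these counts alone do not set the list apart. The median lay between -0.76 (without AOM/DSS adenoma 2) and -0.14 (without ApcMin/+ adenoma 1) with 1 library left out, and was -0.23 and -0.19 without AOM/DSS adenomas 1 and 3. Nos2, which encodes the inducible nitric oxide synthase, had 110, 233 and 133 CPM in AOM/DSS adenomas against 24.3, 10.5 and 4.99 CPM in ApcMin/+ adenomas (3.58 ± 0.61, adjusted p = 0.0143; without ApcMin/+ adenoma 2 adjusted p = 0.0686). The cytokine gene Il17f (3.48 ± 0.58, adjusted p = 0.0131) was higher too, and lost its call without that same library. The lower genes were Il6, Ptgs2 and Saa3, and each held its call in all leave-one-out fits. Ptgs2, which encodes the prostaglandin enzyme cyclooxygenase 2, had 8.20, 11.2 and 9.72 CPM in AOM/DSS adenomas against 30.8, 68.3 and 56.2 CPM in ApcMin/+ adenomas (-2.42 ± 0.31, adjusted p = 0.00727). The cytokine gene Il6 was at 0.129, 0.0534 and 0.0426 CPM in AOM/DSS adenomas, where 3 counts in a library make 0.136 to 0.165 CPM before TMM scaling, against 1.27, 5.27 and 1.14 CPM in ApcMin/+ adenomas. Without ApcMin/+ adenoma 2 no inflammation gene was called higher, and without AOM/DSS adenoma 1 there were 6.

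Many genes of the extracellular matrix and its remodelling were lower in AOM/DSS adenomas. Of 22 fibroblast and matrix genes 11 were lower and 0 higher, with a median of -0.73, and in 14 the groups did not overlap, where 20.6% of all genes stood apart in that direction. Of 19 matrix protease and inhibitor genes 10 were lower and 0 higher, with a median of -1.10. Between the sections the fibroblast and matrix list had a median difference of -0.58, not far from that of the adenomas. Its summed level was 4235 CPM in the AOM/DSS section and 6723 CPM in the ApcMin/+ section. The protease list had a median difference of -0.28 between the sections. Fn1, which encodes fibronectin, had 317, 243 and 261 CPM in AOM/DSS adenomas against 1114, 1014 and 1113 CPM in ApcMin/+ adenomas. The spread within each group was small beside the gap (-1.98 ± 0.15, adjusted p = 0.00214). Tnc, which encodes the matrix protein tenascin C, had 33.2, 22.6 and 39.7 CPM in AOM/DSS adenomas against 165, 252 and 240 CPM in ApcMin/+ adenomas (-2.78 ± 0.26, adjusted p = 0.00358). Vim, the intermediate filament gene of mesenchymal cells, had 167, 243 and 260 CPM in AOM/DSS adenomas against 915, 821 and 747 CPM in ApcMin/+ adenomas (-1.89 ± 0.20, adjusted p = 0.00459). Fn1, Tnc, Vim and the proteoglycan gene Lum (-3.75 ± 0.54, adjusted p = 0.00949) were called in all leave-one-out fits. The whole list had between 4 genes lower (without ApcMin/+ adenoma 2) and 13 (without AOM/DSS adenoma 1), with 6 and 7 without AOM/DSS adenomas 2 and 3 and 7 without ApcMin/+ adenoma 3.

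The collagenase gene Mmp13 had 18.8, 27.1 and 29.5 CPM in AOM/DSS adenomas against 225, 352 and 141 CPM in ApcMin/+ adenomas, with levels of only 3.70 and 5.45 CPM in the AOM/DSS and ApcMin/+ sections. It was thus lower in AOM/DSS adenomas (-3.25 ± 0.37, adjusted p = 0.00531) but above both sections. Timp3, a protease inhibitor gene, had 56.6, 36.6 and 36.5 CPM in AOM/DSS adenomas against 158, 200 and 274 CPM in ApcMin/+ adenomas (-2.28 ± 0.27, adjusted p = 0.00587). Plaur, which encodes the urokinase receptor, was lower by a smaller step (-1.23 ± 0.17, adjusted p = 0.00888). Of 18 BMP and TGF-beta genes 4 were lower and 0 higher (median -0.59), where 7.9% of all genes were lower and 10.2% higher. Inhba, an activin subunit gene, had 3.09, 1.97 and 2.94 CPM in AOM/DSS adenomas against 12.9, 16.7 and 13.1 CPM in ApcMin/+ adenomas (-2.41 ± 0.27, adjusted p = 0.00503). The growth factor gene Tgfb2 (-1.76 ± 0.27, adjusted p = 0.0104) and the BMP inhibitor gene Grem1 (-2.21 ± 0.39, adjusted p = 0.0154, or 0.0549 without ApcMin/+ adenoma 2) were lower too. Without ApcMin/+ adenoma 2 the protease list had 5 genes lower.

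Part of the fetal and regenerative gene list was lower too. Such genes, several of them targets of the growth regulator YAP, are switched on when gut epithelium repairs itself. Of 24 genes 7 were lower and 1 higher, with a median of -0.36. The summed level of the list overlapped, at 4807, 4737 and 4023 CPM in AOM/DSS adenomas against 4009, 4994 and 5368 CPM in ApcMin/+ adenomas. Ctgf, a standard YAP target, had 28.7, 31.6 and 25.9 CPM in AOM/DSS adenomas against 97.4, 149 and 145 CPM in ApcMin/+ adenomas, with no overlap (-2.18 ± 0.19, adjusted p = 0.00312). Il11, a cytokine gene of injured tissue, had 1.89, 2.45 and 2.64 CPM in AOM/DSS adenomas against 12.8, 24.2 and 11.1 CPM in ApcMin/+ adenomas (-2.78 ± 0.37, adjusted p = 0.00775). Ankrd1, another YAP target, was lower by 3.62 ± 0.51 on the log2 scale (adjusted p = 0.00887). These 3 held in all leave-one-out fits. The osteopontin gene Spp1 (-2.45 ± 0.47, adjusted p = 0.0188) did not pass without ApcMin/+ adenoma 1 or 2. The YAP target gene Cyr61 (-1.66 ± 0.32, adjusted p = 0.0192) did not pass without AOM/DSS adenoma 2 or ApcMin/+ adenoma 2. The list had 3 genes lower without ApcMin/+ adenoma 2 and 4 without AOM/DSS adenoma 2. The stem cell antigen gene Ly6a was the higher one, with 420, 905 and 355 CPM in AOM/DSS adenomas against 176, 184 and 277 CPM in ApcMin/+ adenomas (1.40 ± 0.39, adjusted p = 0.0498), and it missed the threshold without any 1 adenoma other than AOM/DSS adenoma 3. The TEAD motif CATTCC, the site of YAP's DNA-binding partners, was found on either strand in 4 of 14 promoters of this list against 14.8% of tested genes, and Ankrd1 was the 1 called gene among the 4.

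Some genes of other stromal and rare cells were also lower, where 7.9% of all genes were lower and 10.2% higher. Of 17 endothelial genes 6 were lower and 0 higher (median -0.70), including Emcn, a vessel surface sialomucin gene, at 4.12 ± 0.74 CPM in AOM/DSS adenomas and 15.2 ± 4.33 CPM in ApcMin/+ adenomas (SD, n = 3 each; -1.88 ± 0.28, adjusted p = 0.0105). Without ApcMin/+ adenoma 1 or 2 there were 2, and 3 without ApcMin/+ adenoma 3 or AOM/DSS adenoma 1. Of 18 enteric nerve genes 3 were lower and 0 higher (median -2.01, or -1.20 when members without counts take their bound), and Uchl1, a neuronal ubiquitin hydrolase gene, held in every fit (-3.38 ± 0.52, adjusted p = 0.0108); without ApcMin/+ adenoma 2 there was 1. The enteric nerve median was -0.42 without ApcMin/+ adenoma 3, and the summed level overlapped, at 164, 150 and 171 CPM in AOM/DSS adenomas against 140, 129 and 292 CPM in ApcMin/+ adenomas. Of 17 smooth muscle genes 5 were lower and 0 higher (median -1.10), and 1 to 4 with 1 library left out (1 without AOM/DSS adenoma 1 or ApcMin/+ adenoma 2, 2 without AOM/DSS adenoma 2 or 3). Cald1, which encodes the actin-binding caldesmon, was the member called in every fit (-0.90 ± 0.11, adjusted p = 0.00643). The summed smooth muscle level was 968 to 1200 CPM in AOM/DSS adenomas against 1698 to 3333 CPM in ApcMin/+ adenomas, and ApcMin/+ adenoma 3 was the highest; without it the smooth muscle median was -0.60. Of 19 enteroendocrine genes 4 were lower and 0 higher (median -2.35, or -2.34 when members without counts take their bound; -1.33 without ApcMin/+ adenoma 3). The gut hormone gene Pyy had 1.37, 2.83 and 0.853 CPM in AOM/DSS adenomas against 95.1, 176 and 68.8 CPM in ApcMin/+ adenomas, a log2 fold change of -6.09 ± 0.57 (adjusted p = 0.00345) that held in all leave-one-out fits. Cck, the cholecystokinin gene, had no count in any AOM/DSS adenoma and 55 counts over the ApcMin/+ adenomas, and was at least 5.97-fold lower. Its call was lost without ApcMin/+ adenoma 2 (adjusted p = 0.0656), where the list had 1 gene lower; it had 2 without AOM/DSS adenoma 2 or 3 or ApcMin/+ adenoma 1 or 3.

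**Figure D3:**
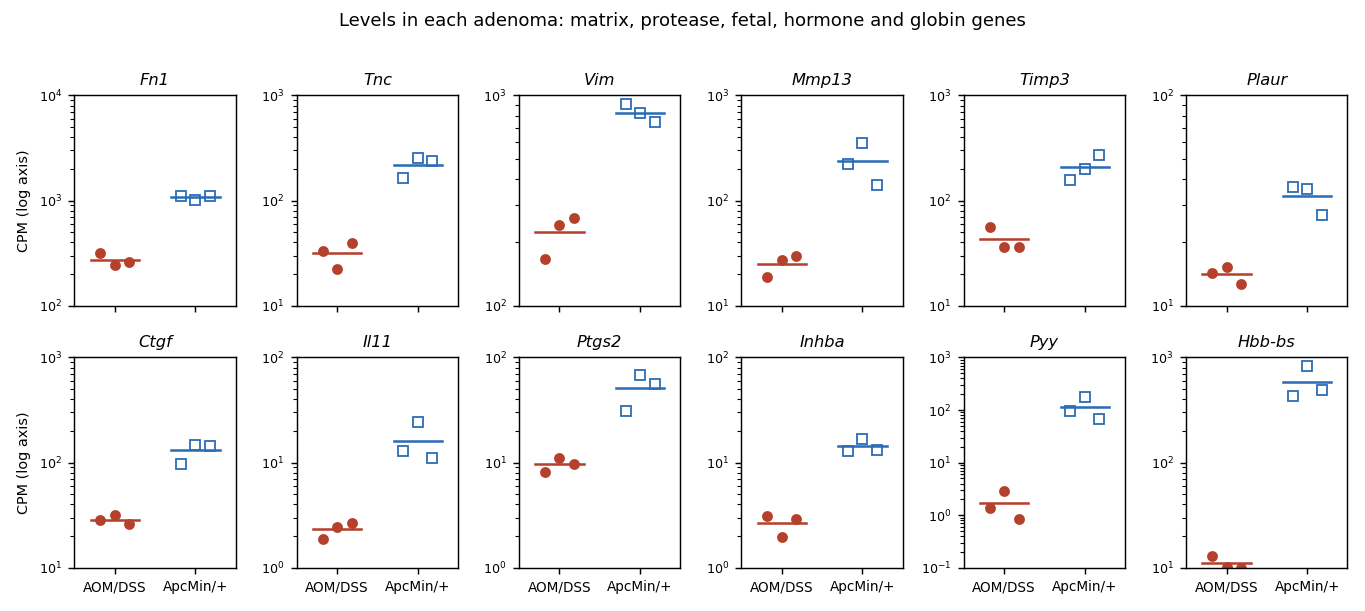
CPM on a log axis in each AOM/DSS adenoma (filled circles, left) and each ApcMin/+ adenoma (open squares, right) for 12 genes, with lines at the group means. All 12 are lower in AOM/DSS adenomas with no overlap between the groups, from Plaur (log2 fold change -1.23) to Pyy (-6.09).

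Goblet and colonocyte genes varied within the ApcMin/+ group. Muc2, the main mucin gene of goblet cells, had 370, 346 and 76.9 CPM in AOM/DSS adenomas against 145, 125 and 2483 CPM in ApcMin/+ adenomas, where adenoma 3 alone was high. None of 18 goblet genes was called by edgeR's test (0 higher, 0 lower, 3 at an unadjusted p under 0.05), and DESeq2 and limma called 0. The goblet median was -0.92 with all adenomas and 0.24 without ApcMin/+ adenoma 3, and -1.49 and -1.39 without AOM/DSS adenoma 1 and ApcMin/+ adenoma 1. The colonocyte median was -0.55 with all adenomas and 0.32 without ApcMin/+ adenoma 3, and -1.06, -0.31 and -0.87 without AOM/DSS adenoma 2, AOM/DSS adenoma 3 and ApcMin/+ adenoma 1. Of 25 colonocyte genes 2 were higher and 2 lower, and 0 to 3 higher and 0 or 1 lower with 1 library left out (0 higher without ApcMin/+ adenoma 2, 3 without ApcMin/+ adenoma 3, 1 without each other adenoma; 0 lower without AOM/DSS adenoma 1 or 2, 1 without each other). Over all genes 10.2% were higher and 7.9% lower, so the colonocyte counts do not set the list apart.

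Red blood cell genes showed the lowest values of any list, in adenomas and sections alike. All 6 tested blood genes were lower, with a median of -5.79, or -5.59 when a member without counts takes its bound. The beta globin gene Hbb-bs had 13.1, 10.2 and 10.1 CPM in AOM/DSS adenomas against 431, 828 and 492 CPM in ApcMin/+ adenomas, and 18 and 638 CPM in the AOM/DSS and ApcMin/+ sections. The summed blood level was 20.3 to 32.2 CPM in AOM/DSS adenomas against 1013 to 1812 CPM in ApcMin/+ adenomas. Red cell transcripts thus moved with the model, and their part in the other differences was not tested. Alas2, the heme synthesis enzyme of red cell precursors, was lower as well (-5.47 ± 0.35, adjusted p = 0.00153). Of the 6, 5 held their calls in all leave-one-out fits, and without ApcMin/+ adenoma 1 or 2 there were 5 lower.

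Among the named single genes, Khdc1c, a KH domain gene, had 79.8, 62.0 and 47.2 CPM in AOM/DSS adenomas and no count in any ApcMin/+ adenoma, and was at least 465-fold higher. The sections had 6.26 CPM (AOM/DSS) and 0 (ApcMin/+). The MHC class I gene H2-Bl had 23.3, 40.1 and 17.3 CPM in AOM/DSS adenomas against 1.18, 0.355 and 0.275 CPM in ApcMin/+ adenomas (5.46 ± 0.63, adjusted p = 0.00548). Pdx1, a transcription factor gene of duodenum and pancreas, had 2.87, 4.21 and 2.60 CPM in AOM/DSS adenomas against 0.0908, 0.0443 and 0.137 CPM in ApcMin/+ adenomas, where each library held 3 counts or fewer (5.07 ± 0.50, adjusted p = 0.00403). Cps1, a urea cycle enzyme gene of liver and gut, had 1.37, 0.373 and 0.128 CPM in AOM/DSS adenomas against 16.3, 32.1 and 22.8 CPM in ApcMin/+ adenomas (-5.22 ± 0.74, adjusted p = 0.00909). All 4 held in every leave-one-out fit. Khdc1b, a gene with a similar name, also had no count in ApcMin/+ adenomas and 217 counts over the AOM/DSS adenomas. Only names ending in -ps or -rs were screened for near copies. Whether counts of Khdc1c or H2-Bl were divided with related genes was not tested.

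Several of the widest gaps belonged to genes with near copies, whose reads were divided differently in the 2 models. Processed pseudogenes arise when a transcript is copied back into the genome, so most of their sequence matches the parent gene. Of 200 tested genes with a -ps or -rs name 32 were called, 16% against 18.1% of all genes, with 23 higher and 9 lower; without ApcMin/+ adenoma 1 or 2 these were 14 and 15 higher and 2 lower, and without AOM/DSS adenoma 2 there were 5 lower. Of 20 called copies whose parent was also tested, 10 went in the opposite direction to it, and in 5 of these both passed the test. Copy and parent did not always add up to a level sum. With the parent the log2 ratio of summed means was -2.84 for Rps2-ps6, -1.26 for Rps18-ps3, -1.18 for Scp2-ps2 and -1.09 for Rps13-ps2. It was 1.71 for Gpx2-ps1 and 1.07 for Mdm4-ps, while the pairs described below had smaller ratios. Among the 280 genes called at 16-fold or more, 1.63% of all genes, 71 were of a pseudogene type and 50 were immunoglobulin genes. Without AOM/DSS adenoma 2 the 280 became 170, and without ApcMin/+ adenoma 1, 2 or 3 they became 158, 100 and 185. The immunoglobulin genes among them then numbered 17 without AOM/DSS adenoma 2, and 14, 3 and 23 without ApcMin/+ adenoma 1, 2 or 3. The pseudogene types numbered 33 without ApcMin/+ adenoma 2 and 42 without ApcMin/+ adenoma 1.

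The ribosomal protein gene Rps2 and its copy Rps2-ps10 changed places. Rps2 had 27.8, 19.2 and 31.7 CPM in AOM/DSS adenomas against 925, 972 and 716 CPM in ApcMin/+ adenomas (-5.05 ± 0.26, adjusted p = 0.000649). Rps2-ps10 had 780, 503 and 765 CPM in AOM/DSS adenomas against 10.3, 14 and 12 CPM in ApcMin/+ adenomas (5.81 ± 0.25, adjusted p = 0.000315). Their sum was 808, 523 and 797 CPM in AOM/DSS adenomas against 936, 986 and 728 CPM in ApcMin/+ adenomas, so the groups overlapped and the log2 ratio of the means was -0.32. The sections divided the same way, with 97.2% of the sum on the copy in the AOM/DSS section and 1.83% in the ApcMin/+ section. The 2 transcripts are 99.4% identical over 934 aligned bases.

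The ribosomal protein gene Rps13 and Rps13-ps1 divided likewise. Rps13 had 184, 110 and 164 CPM in AOM/DSS adenomas against 319, 319 and 276 CPM in ApcMin/+ adenomas (-1.0 ± 0.20, adjusted p = 0.022; without AOM/DSS adenoma 3 or ApcMin/+ adenoma 1 or 2 adjusted p was 0.0501, 0.0653 and 0.0803). Rps13-ps1 had 227, 178 and 241 CPM in AOM/DSS adenomas against 4.18, 8.51 and 5.13 CPM in ApcMin/+ adenomas (5.18 ± 0.31, adjusted p = 0.00144). The copy held 55.2 to 61.8% in AOM/DSS adenomas against 1.29 to 2.59% in ApcMin/+ adenomas, with a log2 ratio of the sums of 0.24. These shares and this ratio leave out Rps13-ps2, which is 100% identical to Rps13 over 453 aligned bases. Rps13-ps2 was called lower in AOM/DSS adenomas (-1.27, adjusted p = 0.0267). Rps2-ps6 and Rps15a-ps7, called copies of Rps2 and Rps15a, are likewise left out of the sums with Rps2-ps10 and Rps15a-ps8. The copy Rps15a-ps8 held 6.81 to 8.81% against 0 to 0.0627% in the same order, and the sum had a log2 ratio of -0.05.

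Counts of Tpm3, which encodes a tropomyosin of the actin cytoskeleton, and Tpm3-rs7 were also divided differently. The counts do not tell which part of the transcripts the reads came from. Tpm3-rs7 had 125, 177 and 144 CPM in AOM/DSS adenomas against 0.318, 0.222 and 0.275 CPM in ApcMin/+ adenomas (9.07 ± 0.24, adjusted p = 5.62e-05), and 119 and 0.86 CPM in the AOM/DSS and ApcMin/+ sections. Tpm3 had 311, 344 and 310 CPM in AOM/DSS adenomas against 457, 479 and 480 CPM in ApcMin/+ adenomas, and the log2 ratio of the sums was -0.01. The transcripts are 99.1% identical over 2108 aligned bases. A stretch of 80 bases is shown to let the 2 genes be compared base by base: coding bases 60 to 139 of Tpm3 on chromosome 3 and the matching stretch of Tpm3-rs7 on chromosome 14, from GENCODE vM21 transcripts, with the 3 bases that differ in capitals.
Tpm3: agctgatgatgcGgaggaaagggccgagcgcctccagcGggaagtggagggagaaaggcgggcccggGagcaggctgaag
Tpm3-rs7: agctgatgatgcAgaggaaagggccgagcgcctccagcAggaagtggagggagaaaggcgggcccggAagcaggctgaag

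**Figure D4:**
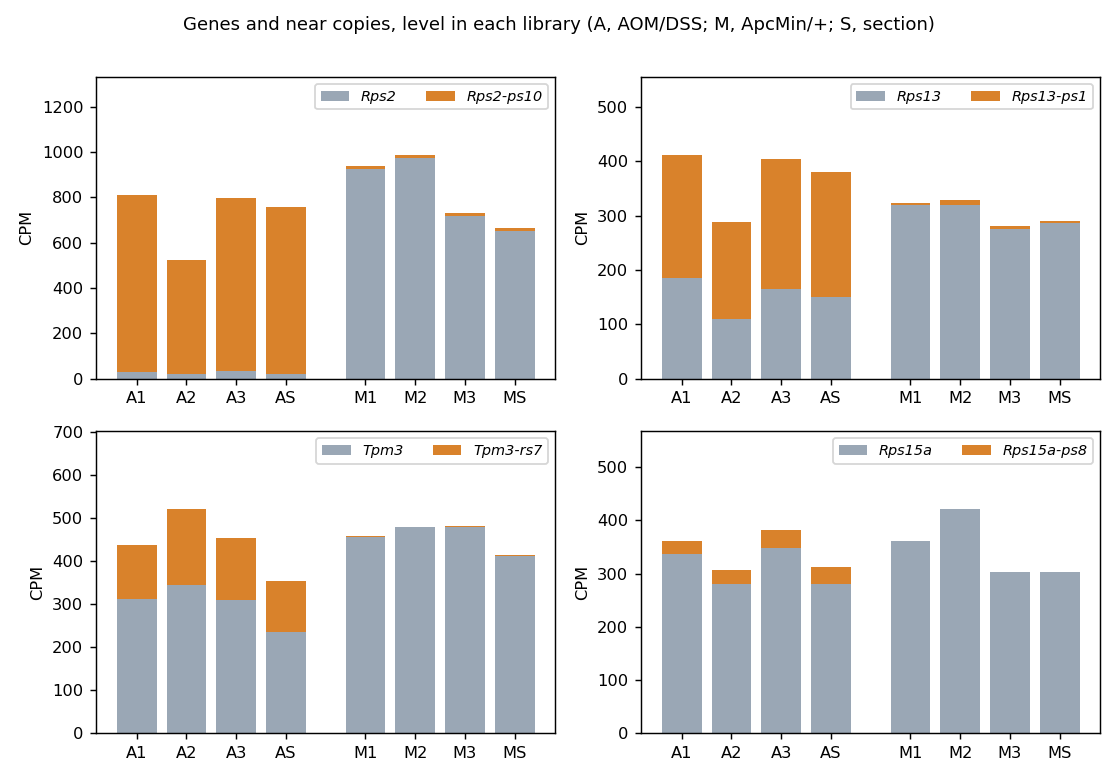
CPM of 4 parent genes (grey) and their near copies (orange), stacked, in AOM/DSS adenomas 1 to 3 (A1 to A3), the AOM/DSS section (AS), ApcMin/+ adenomas 1 to 3 (M1 to M3) and the ApcMin/+ section (MS). The copy takes a large or visible share in all 4 AOM/DSS libraries and almost none in the 4 ApcMin/+ libraries, while the summed bars overlap between the models.

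The sections were compared in the same direction, with 1 section per model, to see how far differences between the adenomas were also found outside them. Of the 3122 called genes 84.1% had the same sign between the sections, against 67.2% of all tested genes. Called genes that differed over 8-fold in the adenomas and over 8-fold between the sections numbered 56, of which 54 went the same way and 26 were of a pseudogene type, a type that makes up 6.53% of tested genes. The test of the difference itself, adenoma gap against section gap, called 0 genes (0.0%) with edgeR (1369 at an unadjusted p under 0.05, lowest adjusted p = 0.112), while DESeq2 called 201 and limma on FPKM values called 1, or 302 with no filter on low values. No gene can therefore be called particular to the adenomas by edgeR's test, and the spread between sections could not be measured.

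**Figure D5:**
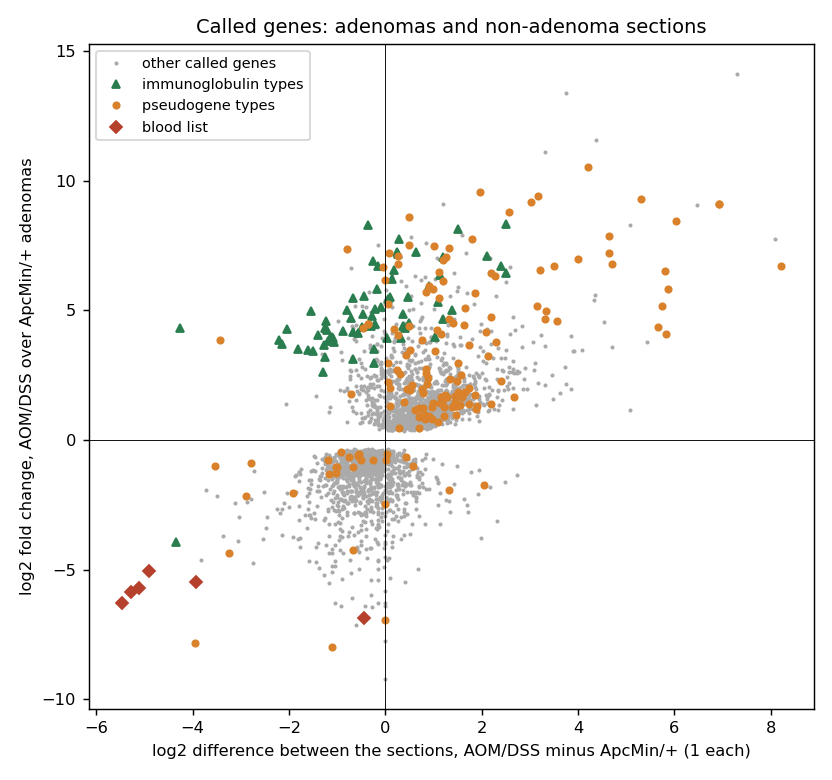
Each called gene's log2 fold change between adenomas (y axis, 3 against 3) against the log2 difference between the sections (x axis, 1 against 1), both AOM/DSS over ApcMin/+. Most blood genes and many pseudogene types lie far out on both axes, and all but 1 of the called immunoglobulin types lie above 0 on the y axis; values of genes with no count in a group depend on the small count added in the fit.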

How the data were processed

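mRNA of colon adenomas and adjacent colon was sequenced as single reads from TruSeq libraries, per the labels' protocols. Estimated counts for 31189 genes and, in a separate table, FPKM values (reads scaled by gene length and library size) were deposited by the authors; the lowest value in both is 1. Build mm9 is named in the submitters' processing notes. Not given in the sources used here: the aligner, the counting tool and whether it used strand. The lowest value of 1 was taken as added to every value and subtracted, and counts were rounded. It was checked on 141 genes: the median absolute log2 deviation between the tables was 0.142 as deposited and 0.0672 after subtraction. Genes passing edgeR's filter (a minimum count of 10 and total of 15) were fitted over all 8 libraries with TMM scaling by edgeR 4.0.16 in R 4.3.3, and p-values were adjusted over 17218 genes. DESeq2 1.42.0, limma 3.58.1 on log2(FPKM + 0.5), other scalings and filters, and leaving out each adenoma were alternatives. The test was tried on simulated counts. Intervals, floors and standard errors cover these libraries only.

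The members and gene lists were chosen with earlier results of these data known. Genes named are the 12 highest and 12 lowest changes among clear calls, up to 3 list members with the smallest p, a few fixed genes, and the 6 widest near copies. Others were chosen after their values were seen: B2m, Ciita, Cyr61, Epcam, Gbp2, Gbp3, Grem1, H2-Aa, H2-Oa, Igtp, Il6, Isg15, Khdc1b, Lef1, Ly6a, Lyz1, Mki67, Mmp7, Muc2, Nkd2, Nos2, Notum, Nupr1, Rnf43, Rps13, Rps13-ps1, Sox9, Spp1 and Tcf7l2. So were the copies Gpx2-ps1, Mdm4-ps, Rps13-ps2, Rps15a-ps7, Rps18-ps3, Rps2-ps6 and Scp2-ps2. Promoters are from RefSeq (GRCm38.p6) and transcripts from GENCODE vM21, while no coordinate of the deposited tables was used. Some genes are not reported here. Transcript identities are from alignments of those transcripts.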

Additional observations from a re-analysis of the deposited data

How the results depend on the processing

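The count of 3122 called genes lay within 1.5 times of itself under other scalings, DESeq2, no filter with edgeR, the 6 adenomas alone, the added 1 kept, and limma on filtered FPKM values (2410 to 4232). It was 1949 with limma and no filter, and 779 to 2157 with 1 adenoma left out, where fewer samples enter. With the replicate number as a block (replicate block, 6 adenomas alone) it was 541, of which 538 were among the 3122. Deviations from the group means of same-numbered adenomas had correlations of -0.153, -0.373 and -0.325, and those of the other pairs lay between -0.002 and 0.306. Within a group of 3 such deviations sum to 0, so these values cannot settle whether the numbers pair the samples. The adenoma against section test, with 0 calls, had 201 with DESeq2, 1 with limma on log2(FPKM + 0.5), 3 with a pseudocount of 0.1 and 302 with no filter; the cause was not tested. The tuft cell channel gene Trpm5 had a log2 fold change of -1.72 with edgeR and reversed: it was 0.57 with limma on FPKM values, 0.77 with a pseudocount of 0.1 and 0.57 with no filter; the cause was not tested. Of 108 called genes under the naming rule 44 held under every alternative, and ApcMin/+ adenoma 2 cost the most single-library losses (55).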

Other observations

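Some positional, squamous and enzyme genes also differed between AOM/DSS and ApcMin/+ adenomas. Hoxa13, the homeobox gene of the hindgut end, had 7.94, 9.23 and 6.95 CPM in AOM/DSS adenomas against 44.8, 40.7 and 37.8 CPM in ApcMin/+ adenomas. The groups lay far apart, with a log2 fold change of -2.35 ± 0.15 (edgeR adjusted p = 0.00167), while the sections had 37.8 CPM (AOM/DSS) and 59.1 CPM (ApcMin/+). Of 18 Hox genes 3 were higher and 2 lower, and Hoxa13 was the 1 that held its call with any 1 adenoma left out (without AOM/DSS adenoma 1 or 3 or ApcMin/+ adenoma 1 or 2, 0 were higher and 1 was lower). With 10.2% of all genes higher and 7.9% lower, the Hox counts alone do not set the list apart. The position along the colon from which each sample came is not given in the labels, and its part was not tested. Krt17, a keratin gene of stressed squamous epithelium, had 2.27, 3.57 and 5.16 CPM in AOM/DSS adenomas against 30.9, 30.7 and 18.1 CPM in ApcMin/+ adenomas (-2.85 ± 0.37, edgeR adjusted p = 0.00758). Dsg3, a desmosome gene of such epithelium, went the other way, with 17.1, 24.5 and 6.23 CPM in AOM/DSS adenomas against 1.63, 1.99 and 1.74 CPM in ApcMin/+ adenomas (3.15 ± 0.51, edgeR adjusted p = 0.0126, or 0.0594 without ApcMin/+ adenoma 2).

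Lpl, which encodes lipoprotein lipase, had 49.0, 39.4 and 38.0 CPM in AOM/DSS adenomas against 21.7, 15.8 and 21.4 CPM in ApcMin/+ adenomas (1.10 ± 0.18, edgeR adjusted p = 0.0124). Mgst1, a membrane glutathione transferase gene, had 9.18, 15.1 and 14.5 CPM in AOM/DSS adenomas against 53.9, 44.2 and 59.3 CPM in ApcMin/+ adenomas, below every ApcMin/+ adenoma (-2.02 ± 0.22, edgeR adjusted p = 0.00497). Errfi1, a feedback inhibitor of the EGF receptor, had 27.9, 20.9 and 29.0 CPM in AOM/DSS adenomas against 78.4, 107 and 128 CPM in ApcMin/+ adenomas (-2.01 ± 0.22, edgeR adjusted p = 0.00497). These 3 held in all leave-one-out fits.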
